A study of Homo sapiens with 9 samples.

Results

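The 35 genes described here carry out homologous recombination, the Fanconi pathway and the DNA damage checkpoints. They were taken by symbol from a count table of 61832 rows, of which 60651 are genes, and all 35 were found. By role they are 4 recombination mediators, 6 strand-exchange genes, 7 resection nucleases and helicases, 11 Fanconi genes, 5 checkpoint genes and 2 other repair genes. The cells are HCT116, a long-established line of human colorectal cancer with wild type as its genotype label, and the labels put 9 libraries in 3 groups of 3. All groups express a short hairpin RNA. The shCTRL DMSO group carries a control hairpin and received the solvent DMSO. The shSLC6A3 DMSO group carries a hairpin against SLC6A3, the dopamine transporter gene, with the same solvent. The shCTRL VXN group carries the control hairpin and was given VXN, an abbreviation left unexplained in the labels. Dose, time, the number of hairpins, clonality and whether the libraries of a group were separate cultures are not stated in the labels. Their p-values therefore measure only the spread between libraries, which may be technical.

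The labels and the authors' tables disagree about the groups, and this touches every result below. The authors deposited 2 tables made with DESeq2. By their names, they compare shCTRL V, and separately shDAT D, with shCTRL D. A rerun with the labelled groups gave 0% of the p-values of the first table and 1.41% of those of the second, within 1e-06. A rerun on 3 other sets of 3 columns gave all 38907 p-values of each table. In those sets the shCTRL V columns are replicate 3 of shCTRL DMSO, replicate 1 of shSLC6A3 DMSO and replicate 3 of shCTRL VXN. For shDAT D they are replicates 1 and 2 of shCTRL DMSO and replicate 1 of shCTRL VXN. The shCTRL D columns, used as the control of both tables, are replicates 2 and 3 of shSLC6A3 DMSO and replicate 2 of shCTRL VXN. Libraries are called by their labels throughout, the sets are called by the tables' names, and no treatment is inferred from a library's values. The targeted gene gives no check, since SLC6A3 had between 0 and 6 counts in each library. Total counts ran from 30251364 to 60215785 per library, and repeats took 1.95 to 2.12% of them in the shCTRL V columns and 1.68 to 1.77% elsewhere. Pearson's r of log2 CPM (counts scaled to library size by TMM) was between 0.925 and 0.999 for libraries with the same label and between 0.982 and 0.999 within a set of columns. In the shCTRL D set, shCTRL VXN replicate 2 had an r of 0.982 to 0.983 with its partners, and 0.997 to 0.998 with the shDAT D columns. Of 8 colon epithelial markers 6 were at 1 CPM or more, CDX1 and VIL1 being lower. Their sum was 4712 to 4902 CPM in the shCTRL V columns and 4067 to 4413 CPM elsewhere. Leukocyte markers summed to 3.36 to 3.65 CPM in the shCTRL V columns and 3.56 to 7.08 CPM elsewhere, nearly all of it CD68, and PTPRC and CD3E were under 1 CPM. Fibroblast markers summed to 32.9 to 47.5 CPM in the shCTRL V columns and 18.9 to 37.2 CPM elsewhere, with COL1A2, COL3A1, DCN and LUM under 1 CPM. The part of these differences in the results below was not tested.

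Homologous recombination repairs a broken chromosome by copying the sister chromatid. The broken end is cut back by nucleases, BRCA2 acts on the exposed strand with help from BRCA1, BARD1 and PALB2, and RAD54 proteins drive the strand exchange. The Fanconi pathway removes crosslinks between DNA strands, with a core complex that attaches ubiquitin to FANCD2 and FANCI. The kinases ATM and ATR sense damage and signal through CHEK2 and CHEK1 to hold the cell cycle. Many of these genes are transcribed mainly in S and G2 phase, when a sister chromatid is present.

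Because most of the genes moved together in the first table, their promoters were read for the letters of 3 elements known from cell cycle genes. The sequences come from RefSeq on GRCh38.p14, and 250 bases upstream of the annotated start are shown, 5′ to 3′ on the gene's strand. The genes shown had the lowest adjusted p in 4 role groups, and TP53BP1 was added after its values were seen, as the only gene called higher. Capitals mark matches, on either strand, to the E2F letters TTTCCCGC, TTTGGCGC, TTTCGCGC or TTTGCCGC, to the CHR letters TTTGAA or TTCGAA, and to CCAAT. The windows are chr13:32315258-32315507 (plus strand) for BRCA2, chr1:46247438-46247687 (plus) for RAD54L, chr16:89816648-89816897 (minus) for FANCA, chr22:28741821-28742070 (minus) for CHEK2 and chr15:43510641-43510890 (minus) for TP53BP1.
BRCA2: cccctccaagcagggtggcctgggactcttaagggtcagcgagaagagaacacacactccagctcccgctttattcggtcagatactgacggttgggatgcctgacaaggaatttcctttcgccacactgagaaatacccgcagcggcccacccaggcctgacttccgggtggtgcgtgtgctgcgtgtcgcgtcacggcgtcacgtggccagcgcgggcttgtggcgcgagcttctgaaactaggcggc
RAD54L: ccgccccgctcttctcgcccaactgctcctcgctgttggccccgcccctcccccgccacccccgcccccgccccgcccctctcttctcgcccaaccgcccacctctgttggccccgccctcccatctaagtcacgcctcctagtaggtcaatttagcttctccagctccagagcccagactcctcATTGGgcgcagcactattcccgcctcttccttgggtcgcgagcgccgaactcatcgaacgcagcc
FANCA: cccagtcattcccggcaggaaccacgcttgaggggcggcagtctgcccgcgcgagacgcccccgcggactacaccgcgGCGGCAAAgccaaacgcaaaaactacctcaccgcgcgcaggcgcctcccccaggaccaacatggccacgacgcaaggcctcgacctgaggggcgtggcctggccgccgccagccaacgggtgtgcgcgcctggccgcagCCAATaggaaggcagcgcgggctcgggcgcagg
CHEK2: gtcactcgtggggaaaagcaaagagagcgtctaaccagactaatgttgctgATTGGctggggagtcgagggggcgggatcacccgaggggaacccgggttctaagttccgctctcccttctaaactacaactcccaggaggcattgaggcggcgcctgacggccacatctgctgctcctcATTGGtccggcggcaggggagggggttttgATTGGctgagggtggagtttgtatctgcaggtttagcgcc
TP53BP1: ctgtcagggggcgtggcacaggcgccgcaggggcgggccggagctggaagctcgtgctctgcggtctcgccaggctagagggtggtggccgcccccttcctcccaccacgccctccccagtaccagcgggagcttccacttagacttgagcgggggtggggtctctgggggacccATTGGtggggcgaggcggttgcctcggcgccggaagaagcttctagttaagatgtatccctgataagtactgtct
BRCA2 holds none of the letters in these bases. RAD54L has 1 CCAAT match, beginning 65 bases before the start. FANCA has the E2F letters TTTGCCGC 172 bases before the start and CCAAT 33 bases before it. CHEK2 has 3 CCAAT matches, at 199, 70 and 40 bases, and TP53BP1 has 1 at 75 bases. RefSeq windows were matched for 30 of the 35 genes (RAD54B, NBN, DNA2, WRN and FANCI had no row). The BRCA1 window was left out because its start lies 44844 bases from the principal start in GENCODE v29, which leaves 29 windows, each of 250 bases before and 50 after the start. The E2F letters were in 6 of them (20.7%), against 3.33% of all 27305 windows and 5.44% of the 10233 windows of expressed genes. These 6 belong to XRCC2, EXO1, FANCA, FANCC, FANCD2 and MSH6, all of which were at least 2-fold lower in the authors' deposited table for shCTRL V. In XRCC2, EXO1 and MSH6 the letters begin after the start. Of the 29, 23 were at least 2-fold lower there and 6 were not. CCAAT was in 15 of 29 windows (51.7%), against 35.7% of all and 36.9% of expressed windows, and the CHR letters were in 5 (17.2%), against 16.6% and 10.7%. GENCODE v29 has starts upstream of the RefSeq start for BRCA2, FANCA, CHEK2 and TP53BP1, so some printed bases may be transcribed. A match is a description of letters and shows no binding.

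In the authors' deposited table for shCTRL V against shCTRL D, 31 of the 35 genes were lower, 1 was higher and 3 were not called at an adjusted p below 0.05. All 35 had an adjusted p. Of all 24274 features tested in that table, 22.7% were lower and 21.4% were higher. At least a 2-fold decrease was called for 27 of the 35, where 7.14% of all features had one. Of these 27 genes, 18 were at least 4-fold lower, a limit at which the share of all features was not counted. The median log2 fold change of the genes was -2.07, against -0.0016 for all features tested. Fold changes of the deposited tables are shrunken by DESeq2, which pulls poorly measured values toward 0. In CPM the 3 shCTRL V columns lay below all other 6 libraries for 30 of the 35 genes, where 29.1% of 16452 features with a symbol did so. All counts were well above 0, the lowest being 48 in any library. RNA of a whole culture cannot tell fewer cells of a kind from less RNA per cell. The 10 reference genes of proliferating cells were also lower in the authors' deposited table, 10 of 10, with a median of -2.65. MKI67, the proliferation antigen, stood at 74.4, 73.7 and 62.2 CPM in the shCTRL V columns and at 571, 577 and 587 CPM in the shCTRL D columns. The part of proliferation in the repair gene results was not tested.

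**Figure D1:**
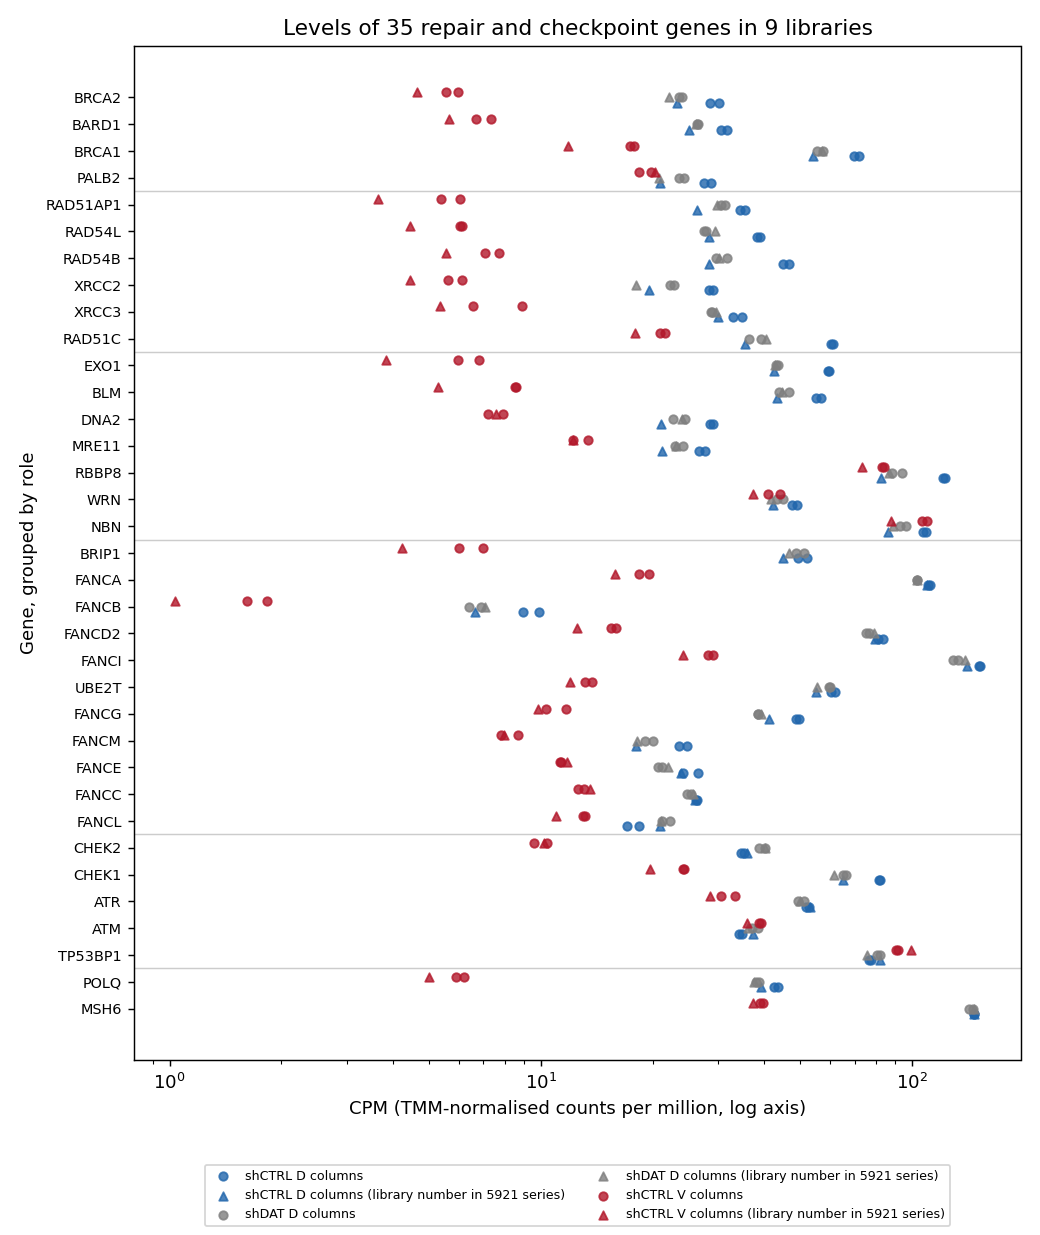
Levels of the 35 genes in the 9 libraries, as TMM-normalised CPM on a log axis. Each point is 1 library, coloured by its set of columns, and triangles mark the shCTRL VXN library of each set, whose library number belongs to a separate series. For 30 of 35 genes the 3 red shCTRL V points lie to the left of all other points.

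The 4 mediators were all lower. BRCA2 (GRCh38 chr13:32315474-32400266) had 5.97, 5.54 and 4.65 CPM in the shCTRL V columns, given here and below in the order of the libraries named above. It had 23.9, 23.5 and 22.2 CPM in the shDAT D columns and 28.6, 30.2 and 23.2 CPM in the shCTRL D columns. The sets did not overlap between shCTRL V and the others, and the log2 fold change in the authors' deposited table for shCTRL V was -2.36 (SE 0.14, adjusted p = 2.6e-67). BARD1 (chr2:214725646-214809711), the partner of BRCA1 in a ubiquitin ligase, had 7.35, 6.69 and 5.66 CPM in the shCTRL V columns. Its levels were 26.6, 26.4 and 26.2 CPM in the shDAT D columns and 31.7, 30.5 and 25.0 CPM in the shCTRL D columns. Again the shCTRL V columns were the 3 lowest libraries, and the authors' deposited table gives -2.16 (SE 0.13, adjusted p = 4.3e-63). BRCA1 was -2.07 (SE 0.16) on the log2 scale in the authors' deposited table. PALB2, which bridges BRCA1 and BRCA2, moved least of the 4, with -0.41 (SE 0.13, adjusted p = 0.00342) in the authors' deposited table, and its shCTRL V levels of 19.7, 18.4 and 20.3 CPM lay just under the lowest other library at 20.8 CPM.

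All 6 strand-exchange genes were lower, with log2 fold changes from -2.68 to -1.37 in the authors' deposited table. RAD54L (chr1:46247688-46278473), a motor protein of strand exchange, had 6.12, 6.07 and 4.43 CPM in the shCTRL V columns. It had 27.5, 27.8 and 29.4 CPM in the shDAT D columns and 38.9, 38.2 and 28.3 CPM in the shCTRL D columns. The shCTRL V columns were lowest and the 2 shSLC6A3 DMSO libraries highest, and the authors' deposited table gives -2.68 (SE 0.16, adjusted p = 1.4e-65) for shCTRL V. RAD51AP1 (chr12:4538798-4560048), which stimulates strand pairing, had 5.39, 6.07 and 3.63 CPM in the shCTRL V columns. The shDAT D columns had 31.4, 30.6 and 29.7 CPM and the shCTRL D columns 35.6, 34.5 and 26.3 CPM. Its log2 fold change in the authors' deposited table was -2.68 (SE 0.17, adjusted p = 1.2e-54), and the shCTRL V columns were again the 3 lowest. In the same authors' deposited table RAD54B, a relative of RAD54L, was at -2.57 (SE 0.18), and the strand-exchange cofactors XRCC2, XRCC3 and RAD51C were at -2.26 (SE 0.18), -2.24 (SE 0.15) and -1.37 (SE 0.18).

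The resection group held both the gene that fell most and 2 genes that were not called. EXO1 (chr1:241847967-241895148), an exonuclease that cuts back DNA ends over long stretches, had 5.97, 6.80 and 3.83 CPM in the shCTRL V columns. It had 43.0, 43.6 and 42.7 CPM in the shDAT D columns and 59.4, 59.7 and 42.6 CPM in the shCTRL D columns, so that the shCTRL V columns were the 3 lowest and the other ranges overlapped. The authors' deposited table gives -3.29 (SE 0.18, adjusted p = 4.9e-71), a 9.81-fold decrease and the lowest log2 fold change of the 35. BLM (chr15:90717327-90816165), a helicase that also takes apart joined DNA molecules, had 8.58, 8.54 and 5.29 CPM in the shCTRL V columns. It had 43.9, 46.6 and 44.6 CPM in the shDAT D columns and 55.0, 56.7 and 43.4 CPM in the shCTRL D columns, so that the shCTRL V columns were the 3 lowest and the other ranges overlapped. The authors' deposited table gives -2.80 (SE 0.17, adjusted p = 8.6e-63) for BLM, -1.81 (SE 0.14) for the nuclease-helicase DNA2, -1.005 (SE 0.12) for the nuclease MRE11 and -0.44 (SE 0.14) for RBBP8, the cofactor that starts resection.

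WRN, a helicase related to BLM, and NBN, which joins MRE11 in the break-sensing complex, did not pass the test. WRN had 40.8, 44.0 and 37.2 CPM in the shCTRL V columns, 43.3, 45.0 and 41.6 CPM in the shDAT D columns and 48.9, 47.3 and 42.1 CPM in the shCTRL D columns. The ranges overlap, and the authors' deposited table gives -0.20 (SE 0.09, adjusted p = 0.0586). WRN did pass, in the lower direction, in a DESeq2 rerun without shCTRL VXN replicate 2, at -0.28 unshrunken. NBN had 109.5, 106 and 87.7 CPM in the shCTRL V columns, 92.8, 96.4 and 88.6 CPM in the shDAT D columns and 109, 107 and 85.9 CPM in the shCTRL D columns. In every set the VXN library was the lowest for NBN, as it was for WRN. For NBN the authors' deposited table gives -0.02 (SE 0.11, adjusted p = 0.918).

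All 11 Fanconi genes were lower, 10 of them by at least 2-fold, with a median of -2.21 in the authors' deposited table. FANCA (chr16:89737549-89816657), a subunit of the core complex, had 19.5, 18.4 and 15.8 CPM in the shCTRL V columns. It had 103, 103 and 103 CPM in the shDAT D columns and 110.3, 112 and 109.9 CPM in the shCTRL D columns. The libraries within each set were close together, the shCTRL V columns were lowest, and the authors' deposited table gives -2.65 (SE 0.08, adjusted p = 3.1e-240). FANCI (chr15:89243949-89317261), a target of the ubiquitin ligase, had 28.1, 28.99 and 24.2 CPM in the shCTRL V columns. Levels were 129, 133 and 139 CPM in the shDAT D columns and 152, 151 and 140.5 CPM in the shCTRL D columns. The shCTRL V columns were lowest, and the authors' deposited table gives -2.47 (SE 0.09, adjusted p = 5.3e-183). Its partner FANCD2 was at -2.49 (SE 0.09) and the helicase BRIP1 at -3.10 (SE 0.15) in the authors' deposited table. Among the other core subunits that table of the authors, as deposited, gives -2.50 (SE 0.21) for FANCB, -2.16 (SE 0.11) for FANCG, -1.14 (SE 0.09) for FANCE, -1.02 (SE 0.08) for FANCC and -1.45 (SE 0.14) for the anchor FANCM. The ligase FANCL and its ubiquitin-conjugating enzyme UBE2T differed in size, -0.61 (SE 0.10) against -2.21 (SE 0.09) in the authors' deposited table.

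The checkpoint genes split. CHEK2 (chr22:28687743-28742422), the kinase downstream of ATM, had 9.58, 10.4 and 10.2 CPM in the shCTRL V columns. It had 40.2, 38.8 and 40.2 CPM in the shDAT D columns and 34.6, 35.2 and 35.8 CPM in the shCTRL D columns, so shCTRL V was lowest and shDAT D highest. The authors' deposited table gives -1.83 (SE 0.07, adjusted p = 1.7e-130). CHEK1 (chr11:125625136-125676255), the kinase downstream of ATR, had 24.2, 24.2 and 19.7 CPM in the shCTRL V columns. It had 66.5, 65.2 and 61.8 CPM in the shDAT D columns and 81.5, 82.1 and 65.0 CPM in the shCTRL D columns, with shCTRL V lowest, and the authors' deposited table gives -1.76 (SE 0.12, adjusted p = 3.9e-48). ATR itself was lower, at -0.79 (SE 0.07) in the authors' deposited table. ATM (chr11:108222484-108369102) did not pass the test. Its levels were 39.2, 38.7 and 35.9 CPM in the shCTRL V columns, 38.4, 37.1 and 36.2 CPM in the shDAT D columns and 34.9, 34.3 and 37.3 CPM in the shCTRL D columns. These ranges overlap, and the authors' deposited table gives 0.07 (SE 0.07, adjusted p = 0.439).

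TP53BP1 (chr15:43403061-43510728), which holds back resection and favours end joining, was the only 1 of the 35 called higher. It had 90.7, 91.3 and 99.3 CPM in the shCTRL V columns, 80.2, 81.7 and 75.6 CPM in the shDAT D columns and 77.4, 76.5 and 82.0 CPM in the shCTRL D columns. The shCTRL V columns were the 3 highest libraries, and the authors' deposited table gives 0.23 (SE 0.07, adjusted p = 0.00175). The increase is small, and 28.7% of the gene's exon length overlaps exons of TUBGCP4. TUBGCP4, a subunit of the microtubule-nucleating complex, is at -1.06 (SE 0.10) in the authors' deposited table. The library kit does not mark strand, so reads of overlapping genes cannot be told apart and this value is uncertain. Overlaps of over 10% also make uncertain the values of RAD54L (25.1%, with LRRC41), RAD54B (59.1%, with FSBP), XRCC3 (76.7%, with KLC1), FANCA (23.6%, with ZNF276), FANCL (19.7%, with VRK2), ATR (16.4%, with AC109992.1) and MSH6 (16.2%, with FBXO11). The labels do not say how the authors' counter treated such reads.

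Of the 2 other repair genes, POLQ (chr3:121431427-121546641), the polymerase that joins ends through short matching stretches, had 5.92, 6.22 and 5.01 CPM in the shCTRL V columns. It had 37.9, 38.6 and 37.5 CPM in the shDAT D columns and 42.4, 43.4 and 39.3 CPM in the shCTRL D columns. The sets did not overlap, and the authors' deposited table gives -2.89 (SE 0.10, adjusted p = 4.9e-182). MSH6 (chr2:47695530-47810101), a subunit of a mismatch recognition complex, had 39.6, 38.9 and 37.2 CPM in the shCTRL V columns. It had 142, 146 and 146 CPM in the shDAT D columns and 147, 147 and 146 CPM in the shCTRL D columns. The other 6 libraries were close together, shCTRL V was lowest, and the authors' deposited table gives -1.95 (SE 0.06, adjusted p = 7.5e-272).

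**Figure D2:**
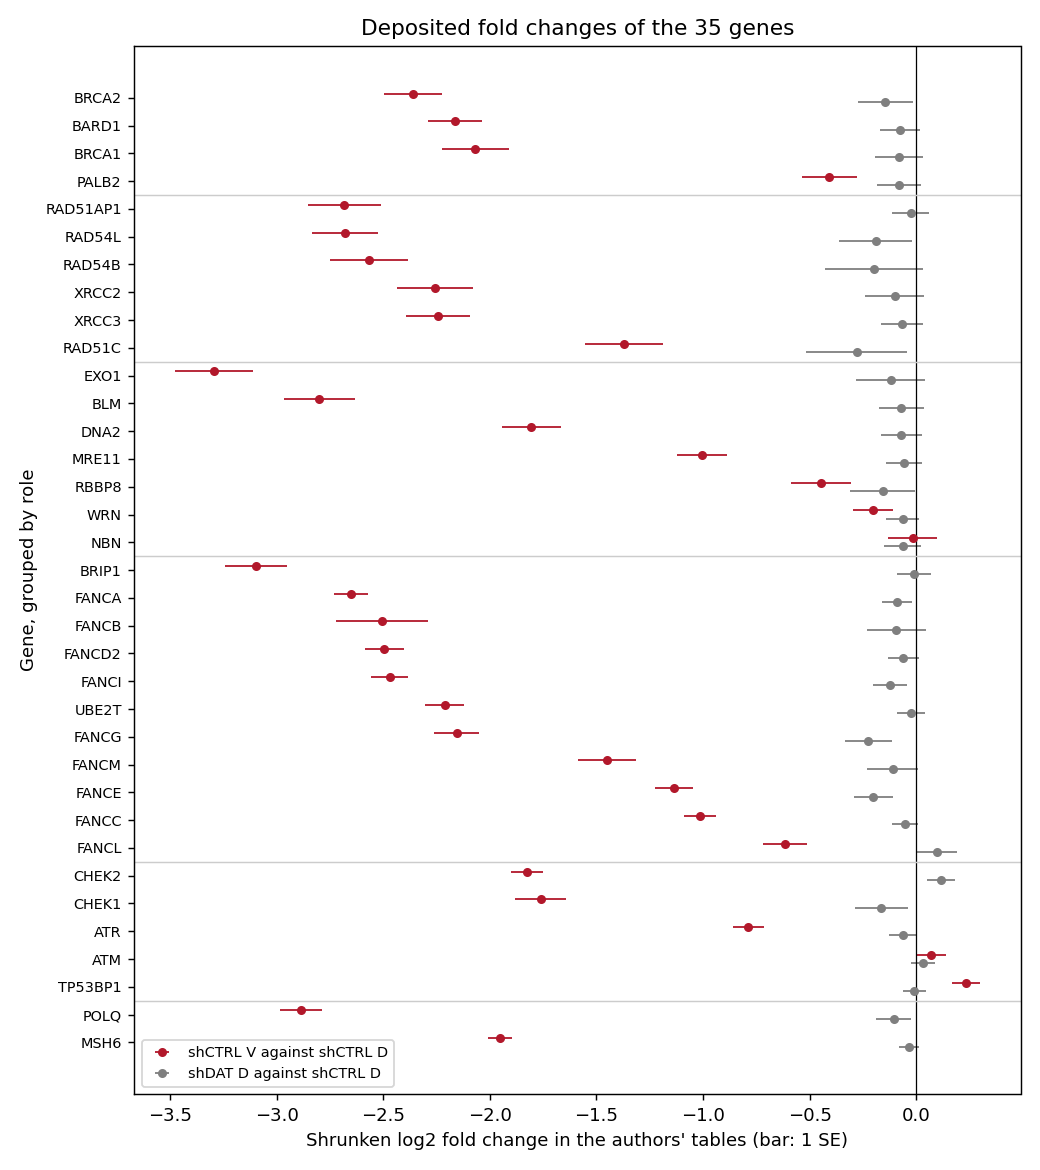
Shrunken log2 fold changes of the 35 genes in the authors' deposited tables, for shCTRL V against shCTRL D in red and shDAT D against shCTRL D in grey, with bars of 1 SE. The red points reach from -3.29 for EXO1 to 0.23 for TP53BP1, while the grey points lie between -0.28 and 0.12. Both comparisons share the shCTRL D columns.

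Per kilobase of exon, UBE2T had the highest level of the 35 in the shCTRL D columns, at 35.8 CPM per kilobase. RBBP8 followed at 21.3, FANCI at 19.1 and NBN at 16.3 CPM per kilobase. The lowest were BRCA2 at 2.23, FANCC at 2.04 and ATM at 1.48 CPM per kilobase. In the shCTRL V columns the order changed. NBN was then highest at 16.4 CPM per kilobase and RBBP8 next at 15.7, UBE2T was at 7.84, and the lowest were BRCA2 at 0.439 and FANCB at 0.416 CPM per kilobase. The genes at the top of the shCTRL V order were thus NBN, which was not called, and RBBP8, which was 1 of the genes lower by less than 2-fold. Lengths are exon unions of GENCODE v29, so a gene expressed from short transcripts is understated.

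Within the shCTRL V columns, shCTRL VXN replicate 3 was the lowest library for 27 of the 35 genes, where 41.8% of all features with a symbol had it lowest. The median ratio of its level to the mean of the other 2 libraries was 0.84. The lowest ratios were 0.60 for EXO1, 0.60 for FANCB and 0.62 for BLM. Leaving this library out kept 31 genes lower and TP53BP1 higher in the DESeq2 rerun. With all libraries, 22.7% of features were lower and 21.4% higher, and the shares without this library are not given here. The 3 shCTRL VXN libraries, 1 in each set of columns, have library numbers of a separate series, and the labels do not say what it stands for.

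Other genes of the same pathways moved in both directions. Of 27 other homologous recombination genes, 15 were lower in the authors' deposited table, 4 were higher and 8 were not called, with a median of -0.48. Beside these and the counts below stand the shares of all features tested there, 22.7% lower and 21.4% higher. The meiosis-related helicase MCM8 stood at -2.39 (SE 0.14), the nuclease subunit EME1 at -2.58 (SE 0.16) and the strand-exchange factor MND1 at -2.82 (SE 0.18) in the authors' deposited table. The authors' deposited table has 8 of 13 other Fanconi genes lower and 3 higher, and a median of -0.35. The lowest adjusted p belonged to MAD2L2, RFWD3 and CENPX, at -0.92 (SE 0.06), -1.09 (SE 0.08) and -1.50 (SE 0.12) in the authors' deposited table. It has 17 of 21 other checkpoint genes lower and 2 higher, with a median of -0.97. TIMELESS, which protects replication forks, was at -1.66 (SE 0.06), the CDK1-inhibiting kinase PKMYT1 at -3.08 (SE 0.13) and the phosphatase CDC25A at -2.51 (SE 0.12) in the authors' deposited table. The 2 that were higher there are RAD17, the loader of the checkpoint clamp, at 0.37 (SE 0.10), and HUS1, a clamp subunit, at 0.38 (SE 0.12), again from the authors' deposited table.

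The remaining repair lists had medians from -0.63 to -0.02. Their counts stand beside the same shares of all features, 22.7% lower and 21.4% higher. For base excision and single-strand break repair the authors' deposited table has 14 of 23 genes lower and 1 higher, and a median of -0.63. LIG1, the replicative ligase, was at -2.26 (SE 0.09), the glycosylases NEIL3 and UNG at -3.01 (SE 0.13) and -1.95 (SE 0.10), and the glycosylase NEIL1 rose, at 0.64 (SE 0.15), in the authors' deposited table. For end joining it has 7 of 14 genes lower and 4 higher, and a median of -0.10. PRKDC, the end joining kinase, was at -2.04 (SE 0.10), MAD2L2, which is also on the Fanconi list, at -0.92 (SE 0.06) and the Ku subunit XRCC5 at -0.86 (SE 0.09) in the authors' deposited table. Among 6 mismatch repair genes, 2 were lower and 2 higher. The authors' deposited table places PMS1 at -0.46 (SE 0.08). For nucleotide excision repair it has 7 of 20 genes lower and 5 higher, and a median of -0.02. There the damage sensor DDB1 was at -0.47 (SE 0.05), while CETN2 and the transcription-coupled repair factor ERCC6 rose, at 1.19 (SE 0.15) and 0.75 (SE 0.09) in the authors' deposited table. Differences between the lists were not tested.

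**Figure D3:**
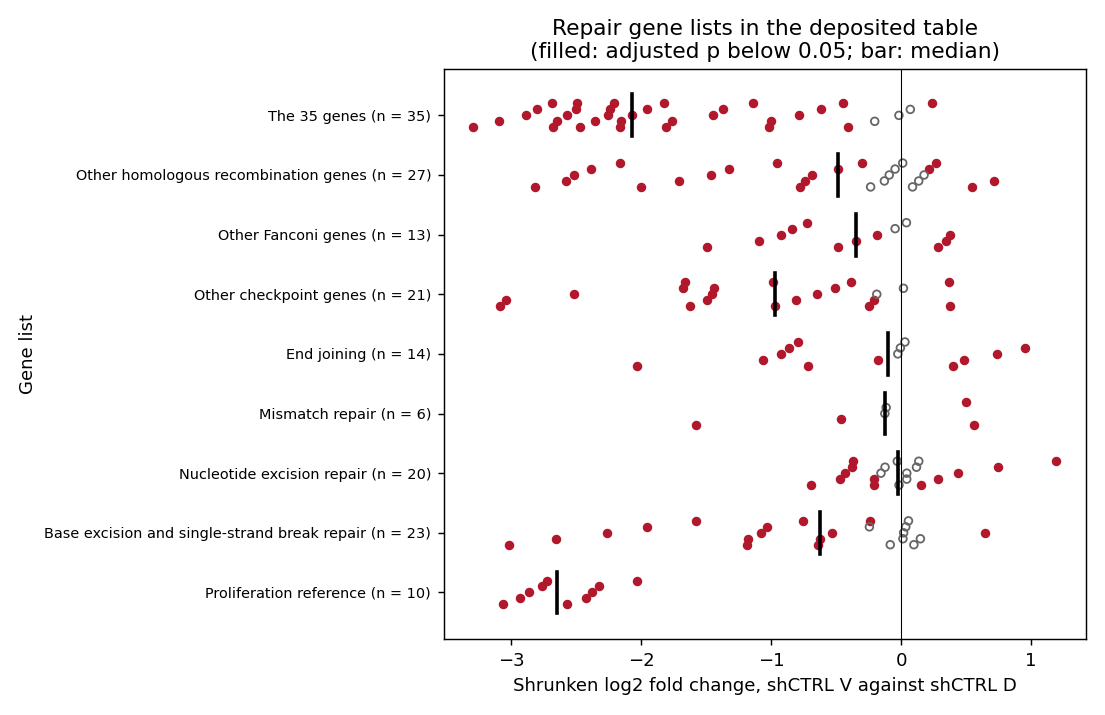
Shrunken log2 fold changes for shCTRL V against shCTRL D in the authors' deposited table, for the 35 genes and 8 other lists. Each point is 1 gene, filled where the adjusted p is below 0.05, and the black bar is the median of the list. The medians are -2.07 for the 35 genes, -2.65 for the proliferation reference, and between -0.97 and -0.02 for the other lists.

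Several of the 35 genes start close to a neighbour on the opposite strand, which allows both sides of 1 promoter region to be compared. This search was added after the values were seen. Within 1000 bases and with a mean of at least 1 CPM, 8 of the genes had such a neighbour, of which 5 were higher, 2 lower and 1 not called in the authors' deposited table for shCTRL V. Of all features tested there, 21.4% were higher and 22.7% lower. NBR2, a noncoding RNA whose start lies 74 bases from the principal start of BRCA1, had 22.5, 22.1 and 23.4 CPM in the shCTRL V columns. It had 4.32, 4.43 and 4.95 CPM in the shDAT D columns and 6.09, 5.56 and 4.03 CPM in the shCTRL D columns. The shCTRL V columns were the 3 highest libraries, with no overlap, and the authors' deposited table gives 2.07 (SE 0.15, adjusted p = 6.1e-44) for NBR2, while BRCA1 is at -2.07 (SE 0.16). MOSPD2 beside FANCB had 34.2, 31.9 and 28.8 CPM in the shCTRL V columns and 19.3, 17.7 and 18.3 CPM in the shCTRL D columns, and the authors' deposited table gives 0.74 (SE 0.09, adjusted p = 1.1e-15). ANKRD49 beside MRE11 was also higher, at 0.51 (SE 0.19, adjusted p = 0.0114) in the authors' deposited table. HSCB beside CHEK2 and the dynactin subunit DCTN5 beside PALB2 were higher by small amounts, 0.25 (SE 0.11, adjusted p = 0.0395) and 0.14 (SE 0.06, adjusted p = 0.0388) in the authors' deposited table. ZFYVE21 beside XRCC3 was not called, at 0.06 (SE 0.06, adjusted p = 0.513) in the authors' deposited table.

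The 2 neighbours that were lower stand beside the 2 genes of these pairs that were not. NPAT, which promotes transcription of histone genes, starts 429 bases from ATM and had 24.1, 22.4 and 21.2 CPM in the shCTRL V columns and 38.9, 39.3 and 34.3 CPM in the shCTRL D columns. The authors' deposited table gives -0.74 (SE 0.10, adjusted p = 8.4e-13) for NPAT. MAP1A, a microtubule-associated protein gene beside TP53BP1, had 1.89, 1.32 and 1.31 CPM in the shCTRL V columns and 7.30, 7.70 and 8.67 CPM in the shCTRL D columns. The authors' deposited table gives -2.40 (SE 0.16, adjusted p = 3.1e-48) for MAP1A, whose counts are low. In 6 of the 8 pairs the gene and its neighbour were both called, in opposite directions, and in the pairs of XRCC3 and ATM 1 side was not called. The differences within pairs were not tested, and the same count over other pairs in the genome was not made. Strand is not marked by the kit, so reads from overlapping first exons of such pairs could be given to either side.

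**Figure D4:**
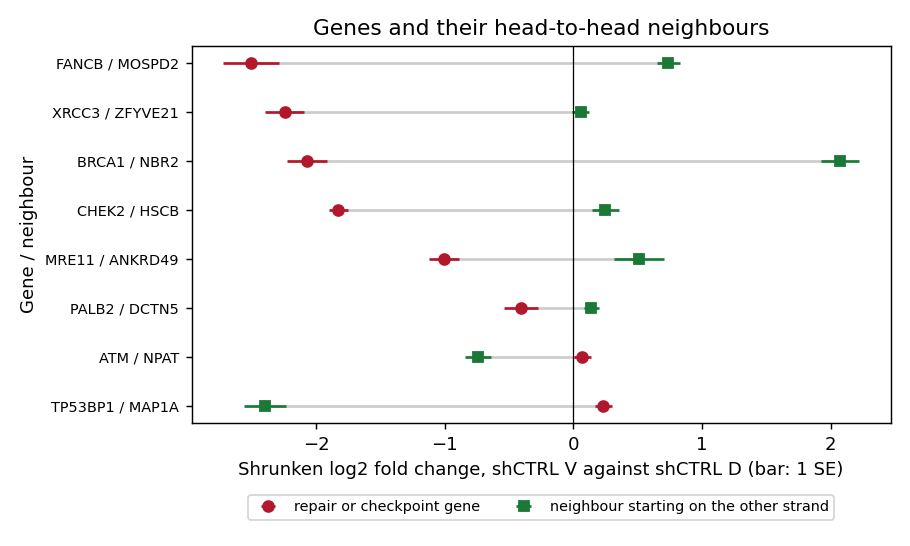
Shrunken log2 fold changes for shCTRL V against shCTRL D in the authors' deposited table, for 8 of the genes (red circles) and the neighbour that starts on the other strand (green squares), with bars of 1 SE. BRCA1 lies at -2.07 and NBR2 at 2.07, and TP53BP1 and MAP1A lie the other way round.

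None of the 35 genes was called for shDAT D against shCTRL D by the authors' deposited table. This contrast shares the shCTRL D columns with the first. It gives an adjusted p for 34 of the 35 genes (not for FANCB), and 5.62% of its 10403 tested features were lower and 1% higher. The unadjusted DESeq2 p was below 0.05 in the lower direction for 10 of those 34 genes, against 24% of the features tested, and in the higher direction for 1, against 6.58%. The edgeR test called 0. The lowest adjusted p in the authors' deposited table belonged to FANCE, at -0.20 (SE 0.09, adjusted p = 0.0501), and FANCG, at -0.22 (SE 0.11, adjusted p = 0.0509). The log2 fold change was below 0 for 32 of the 35, with a median of -0.07 in the authors' deposited table, where all features tested had a median of -0.04. Both medians are of shrunken values. Unshrunken, the median of the 35 genes was -0.17 in the DESeq2 rerun. Neither that median nor the share below 0 is given here for all features.

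The spread within the shCTRL D columns bears on this contrast. The 2 shSLC6A3 DMSO libraries of that set were both above shCTRL VXN replicate 2 for 30 of the 35 genes, where 47.1% of all features with a symbol were. For 30 genes they were also above all 3 shDAT D columns, where 37% of features were. shCTRL VXN replicate 2 was nearer to the mean of the shDAT D columns than to the mean of its 2 set partners for 29 of the 35, against 78.4% of all features. The ratio of the mean of the 2 shSLC6A3 DMSO libraries to shCTRL VXN replicate 2 ran from 0.85 for FANCL to 1.72 for RAD51C, with a median of 1.24. RAD51C, for example, had 61.1, 60.3 and 35.4 CPM in the shCTRL D columns and 36.3, 39.3 and 40.3 CPM in the shDAT D columns. RBBP8 had 122, 121 and 82.2 CPM in the shCTRL D columns and 88.1, 93.8 and 86.5 CPM in the shDAT D columns. In both genes the first 2 of the shCTRL D values stood apart and the third lay at the level of the shDAT D columns. FANCL was the other way round, with 18.4, 17.02 and 20.9 CPM in the shCTRL D columns and 21.1, 22.3 and 21.0 CPM in the shDAT D columns.

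Without shCTRL VXN replicate 2, the DESeq2 rerun called 20 of the 35 genes in shDAT D against shCTRL D. Of these, 19 were lower, where 21.1% of all features were lower, and FANCL was higher, where 13.8% of features were. The control of this rerun was only 2 libraries, shSLC6A3 DMSO replicates 2 and 3, with an r of 0.999 between them. Their r with the library left out was 0.983 and 0.982. Where SE values below are smaller than with all libraries, they thus come from a fit without the most distant library of that set. The unshrunken log2 fold change of RAD51C went from -0.47 (SE 0.18) with all libraries to -0.70 (SE 0.08). That of RAD54B went from -0.42 (SE 0.18) to -0.62 (SE 0.09), and that of RBBP8 from -0.31 (SE 0.14) to -0.48 (SE 0.06). BRCA2, CHEK1 and FANCG were lower as well, at -0.38 (SE 0.09), -0.38 (SE 0.08) and -0.39 (SE 0.07). EXO1, BLM and BRCA1 were not called, at -0.51 (SE 0.22), -0.35 (SE 0.20) and -0.36 (SE 0.17), and BRIP1, MSH6 and TP53BP1 were near 0, at -0.10 (SE 0.20), -0.06 (SE 0.05) and 0.00 (SE 0.06). For EXO1, BLM, BRCA1 and BRIP1 the SE was larger than with all libraries, where it was 0.18, 0.16, 0.15 and 0.14. Without all 3 shCTRL VXN libraries the rerun called 26 genes lower, against 23.4% of features, and FANCL higher, against 13.7%. That contrast set only 2 libraries against 2, each pair with an r of 0.999. With a term for those libraries in the fit, 9 genes were lower, against 8.91% of features, and 0 were higher, against 5.1%. The count in this contrast therefore depends on which libraries enter it and on the terms of the fit.

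**Figure D5:**
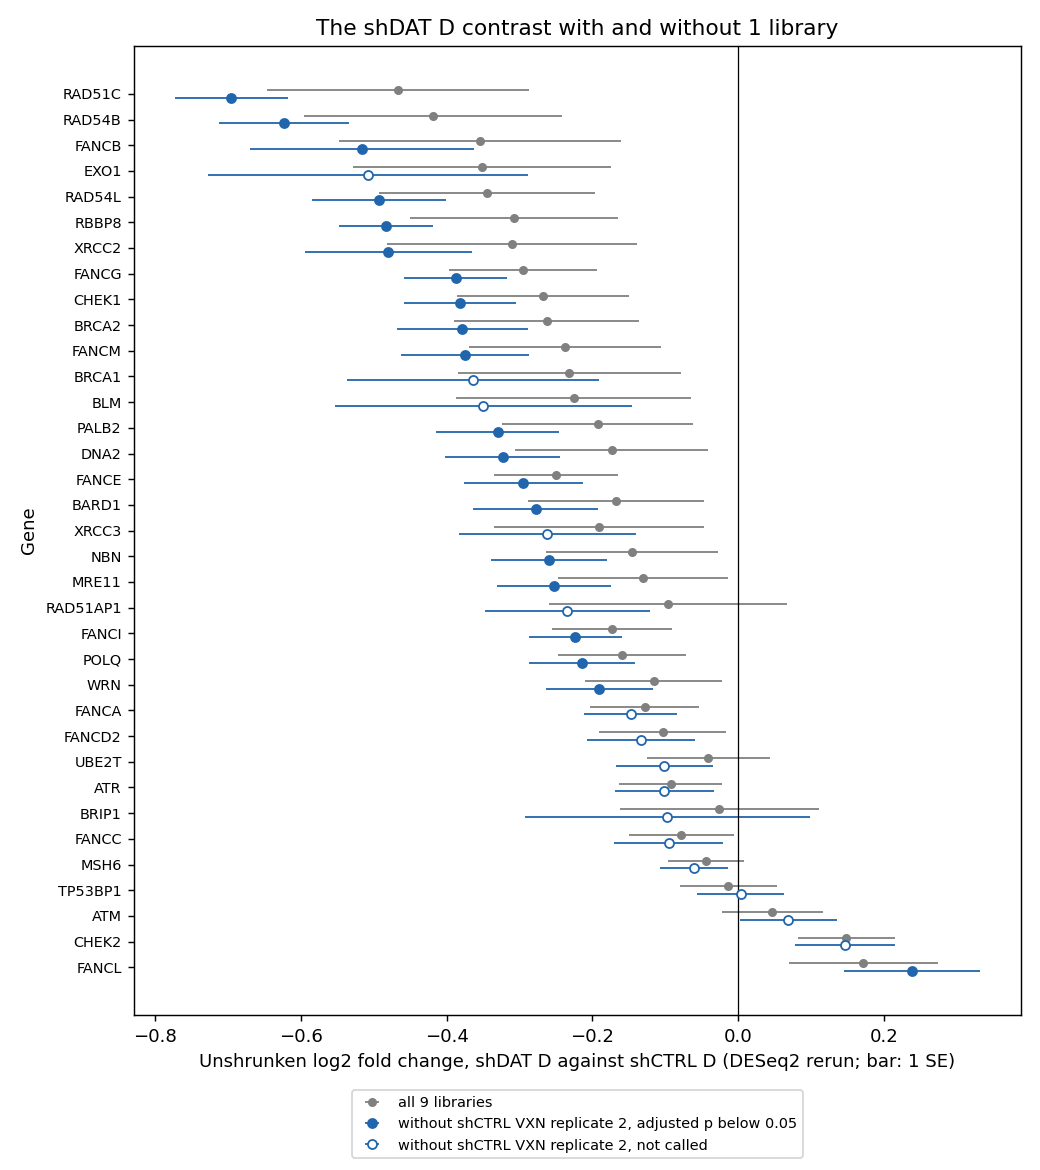
Unshrunken log2 fold changes with bars of 1 SE for shDAT D against shCTRL D in DESeq2 reruns, with all 9 libraries in grey and without shCTRL VXN replicate 2 in blue, filled where the adjusted p is below 0.05. Without that library RAD51C moves from -0.47 to -0.70, and 20 genes are filled.

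By the labels, none of the 35 genes was called in either comparison of whole groups. For shSLC6A3 DMSO minus shCTRL DMSO, edgeR's quasi-likelihood test called 0 of 35 genes, and 0% of the 20402 features tested. The lowest adjusted p of the 35 was 0.978, no gene had an unadjusted p below 0.05 in edgeR or in DESeq2 (0 in each), and DESeq2 also called 0. Log2 differences lay between -0.23 and 0.55 and were above 0 for 31 genes. Without shCTRL DMSO replicate 3, which is 1 of the shCTRL V columns, 26 of the 35 were below 0. By label, the DESeq2 rerun above without the shCTRL VXN libraries set shCTRL DMSO replicates 1 and 2 against shSLC6A3 DMSO replicates 2 and 3. It called 26 genes lower in the shCTRL DMSO pair, against 23.4% of features, and FANCL higher, against 13.7%. The shCTRL V libraries of both labels are outside that contrast. For shCTRL VXN minus shCTRL DMSO, edgeR's quasi-likelihood test also called 0 of 35, where 0.0098% of the features tested were called. Unadjusted p-values below 0.05 numbered 0 in both tools, DESeq2 called 0, and the log2 differences lay between -0.28 and 0.12, below 0 for 24 genes. They were below 0 for 34 genes without shCTRL DMSO replicate 3 and for 6 without shCTRL VXN replicate 3. The shares of all features above or below 0 in the labelled comparisons were not counted. Each labelled group holds 1 of the shCTRL V columns. EXO1, for example, averaged 30.8 ± 21.5 CPM (SD, n = 3) in shCTRL DMSO. Its mean was 42.0 ± 30.5 CPM (SD, n = 3) with the SLC6A3 hairpin and 29.7 ± 22.4 CPM (SD, n = 3) with VXN. For EXO1 the SD within each label was thus a large part of the mean.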

How the data were processed

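RNA of 9 HCT116 libraries was sequenced after a TruSeq RNA v2 preparation, which does not mark strand, per the labels' protocols. The submitters' processing notes name fastp 0.20.1, FastQC 0.11.9, STAR, GRCh38 and DESeq2 1.34.0. The labels name neither the counter nor its annotation release. The deposited counts are whole reads per gene and repeat subfamily. The deposited log2 fold changes, p-values and adjusted p-values are the authors' DESeq2 output, with the base mean, a normalised signal deposited by the authors, beside them.

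Groups came from the labels. The title of the third VXN library reads VNN, and its treatment label, VXN, was used. The labelled comparisons used edgeR 4.0.16 (quasi-likelihood, TMM, R 4.3.3), with Benjamini-Hochberg adjustment over the 20402 features that passed a filter on low counts. All 35 genes passed it. DESeq2 1.42.0 reran the authors' contrasts on the columns that give their p-values, without shrinkage. Scripts were tested on simulated data. Libraries of the same label differed by more than sampling noise, but to very unequal degrees. The ratio of their difference to that noise (chi-square per degree of freedom) was 1.53 to 393 within a label. Within a set of columns it was 1.38 to 88.7, and in each set the pair of libraries without the VXN label was the closest. Replicate numbers did not pair the libraries: deviations of same-numbered libraries correlated between -0.85 and 0.97.

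The genes, lists and rules were chosen with earlier results of these data known. In each role group, genes with values in every library were the 2 with the lowest adjusted p for shCTRL V, any gene moving against its group and any not called, and up to 3 genes were named per other list by adjusted p, with any called gene moving against its list when 2 or fewer did. Skeletal and neural markers (MYOD1, RBFOX3, GFAP) summed to at most 0.27 CPM and endothelial markers to at most 1.25 CPM in any library. Some genes that the rule names are not reported here. The symbol FIRRM on the recombination list was not matched. Neighbours starting on the other strand and the TP53BP1 promoter were added after the values were seen. The alternatives were other scalings, no low-count filter, the other tool, a replicate block, only the 6 libraries compared, each library left out in turn, the 3 shCTRL VXN libraries left out or as a term, and a 2-fold rule.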

Additional observations from a re-analysis of the deposited data

How the results depend on the processing

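In shCTRL V against shCTRL D, between 32 and 33 of the 35 genes were called under each other tool, scaling, filter and left-out library tried, with TP53BP1 the 1 gene higher, and 27 with a 2-fold rule. Many other features were called too: in edgeR with TMM, 5425 of 20402 features were lower and 5714 higher. Over the scalings, 5180 to 5770 features were lower and 5329 to 6011 higher. Shares with a library left out are not given here for this contrast. Over the scalings the median log2 fold change of all features ran from -0.011 to 0.049 for shCTRL V, and from -0.013 to 0.046 for shDAT D. WRN was called lower without shSLC6A3 DMSO replicate 1, without shCTRL VXN replicate 2, without all 3 shCTRL VXN libraries, with a term for them, in edgeR with no low-count filter, and in edgeR with no scaling, which was added after seeing the data. The log2 fold change of NBN, which was not called, turned to 0.0089 in edgeR and to 0.039 with upper-quartile scaling, and ran from -0.13 to 0.075 with each library left out. The count for shDAT D against shCTRL D was 0 in the authors' deposited table and ran from 0 to 20 with each library left out, the 20 being without shCTRL VXN replicate 2. It was 9 with a term for the 3 shCTRL VXN libraries and 27 without them. The cause was not tested. In both labelled comparisons the count was 0 under every alternative tried, and the replicate block, whose numbers do not pair the libraries, also gave 0. The labelled log2 difference of EXO1 ran from -0.043 to 0.95 for shSLC6A3 and from -0.55 to 0.47 for VXN with each library left out. The lowest count of any of the 35 genes in any library was 48, so none was near the limit of detection.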
